A study of Mus musculus with 8 samples.

Results

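The Sfmbt2 miRNA cluster is a run of repeated miRNA hairpins inside an intron of Sfmbt2, the gene of a Polycomb group protein, on mouse chromosome 2. Its members were taken as all GENCODE miRNA transcripts lying within Sfmbt2, and its reads as all deposited sequences of 20 to 24 nt that occur exactly and in sense in one of them, each sequence counted once however many hairpins it fits. This gave 119 hairpins of 2202 annotated miRNA transcripts, and 182 of the 3364 distinct miRNA-matching sequences, with 316162 reads over 8 libraries. The small RNA fraction was sequenced from sorted germ cells in 4 groups of 2 libraries each. Male mouse primordial germ cells (mPGCs) of GOF18 origin came from embryonic day E12.5, E13.5 and E15.5, each replicate from pooled genital ridges. Male primordial germ cell-like cells (mPGCLCs) came from day 6 embryoid bodies grown from a single XY embryonic stem cell line, SGET, of B6CBA/129 background, and were sorted as Stella-GFP positive and Esg1-tdTomato negative cells. The labels give the mPGCs as C57BL/6J, sorted with SSEA1 and CD61 antibodies, whereas the study's methods give a mixed FVB/C57BL/6J background and an EGFP sort. The study likens day 6 mPGCLCs to migratory mPGCs, a stage earlier than E12.5. Strain, sort, developmental stage and growth in culture therefore differ together between mPGCs and SGET mPGCLCs and cannot be told apart. SGET mPGCLCs stand for 1 cell line.

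A miRNA gene is transcribed as a hairpin, from which nucleases release a duplex of a 5p strand and a 3p strand, and the retained strand guides an Argonaute protein to messenger RNAs that pair with its seed, the bases just after the 5′ end. The Sfmbt2 cluster is specific to rodents, is imprinted with expression from the paternal allele in the placenta, and is known from embryonic stem cells and trophoblast. Its hairpins carry the names Mir297, Mir466, Mir467 and Mir669, are rich in G and U on the 5p arm and in A and C on the 3p arm, and many are near-identical copies.

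All 119 hairpins lie on the plus strand between positions 10465287 and 10518279 of chromosome 2 (GRCm38), a span of 52993 bases within Sfmbt2 (10370510 to 10595253, plus strand). The whole run sits in 1 intron, intron 10 of a transcript with 23 exons, from 10461473 to 10523944, and 0 hairpins overlap an exon. By name there are 29 Mir669, 23 Mir466, 14 Mir467 and 5 Mir297 hairpins and 48 with Gm gene numbers. The 10 cluster sequences with the highest mean level over the 4 groups held 72.0% of the cluster's reads. They are printed here as deposited, in DNA letters and 5′ to 3′, because most of the cluster's reads lie in them. Capitals mark the seed, bases 2 to 8.
Mir669c 5p 24-mer: aTAGTTGTgtgtggatgtgtgtat
Mir669c 5p 23-mer: aTAGTTGTgtgtggatgtgtgta
Mir669c 5p 22-mer: aTAGTTGTgtgtggatgtgtgt
Mir669a and Mir669p 5p 22-mer: aGTTGTGTgtgcatgttcatgt
Mir467e 5p 22-mer a: aTAAGTGTgagcatgtatatgt
Mir467e 5p 22-mer b: tAAGTGTGagcatgtatatgtg
Mir467c 5p 22-mer: tAAGTGCGtgcatgtatatgtg
Mir466 3p 22-mer: aTACATACacgcacacataaga
Mir466 3p 23-mer a: aTACATACacgcacacataagac
Mir466 3p 23-mer b: tATACATAcacgcacacataaga

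The 3 Mir669c sequences share 1 seed and differ only at the 3′ end, starting at position 10509319 and ending at 10509340 (22-mer) or 10509342 (24-mer) of the hairpin from 10509296 to 10509404. The Mir467e forms a and b differ by 1 base at the 5′ end and so have different seeds, and so do the Mir466 23-mers a and b. The Mir669a and Mir669p sequence fits 15 hairpins, as do the Mir466 22-mer and the Mir466 23-mer a, so the reads of these cannot be given to 1 copy. In the Mir467c sequence the bases AAGUGC at positions 2 to 7 are those of the miR-290 and miR-302 families, which are abundant in pluripotent cells. Mature sequences of both families from RefSeq show the shared bases.
miR-294-3p: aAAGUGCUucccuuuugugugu
miR-302b-3p: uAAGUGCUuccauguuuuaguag
Within the cluster 11 sequences carry AAGUGC at positions 2 to 7, and they made up 4.58% of its reads. Over all cluster reads, 79.3% of bases on the 5p arm and 21.2% on the 3p arm were G or U, against 55.5% in all other miRNA-matching reads.

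The cluster took a larger share of miRNA reads in SGET mPGCLCs than at any mPGC stage. It made up 1.76% and 1.56% of miRNA-matching reads in the E12.5 libraries, 1.54% and 1.25% in those of E13.5, 1.60% and 2.10% in those of E15.5, and 4.16% and 3.91% in the SGET libraries. Both SGET libraries were above all 6 mPGC libraries, and the E15.5 libraries lay on either side of the higher E12.5 library. Counted as 1 name family among all miRNA name families, the cluster ranked between 12 and 17 by reads in the mPGC libraries, and 5 and 3 in the SGET libraries. The 95% Wilson intervals were narrow, from 1.24 to 1.26% in the deepest library and from 1.55 to 1.64% in the E15.5 replicate 1 library, and they reflect counting error alone, as counts include PCR copies. The libraries held from 301643 to 4195075 miRNA-matching reads, and the E15.5 libraries were the shallowest in miRNA, with 301643 and 501867.

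**Figure D1:**
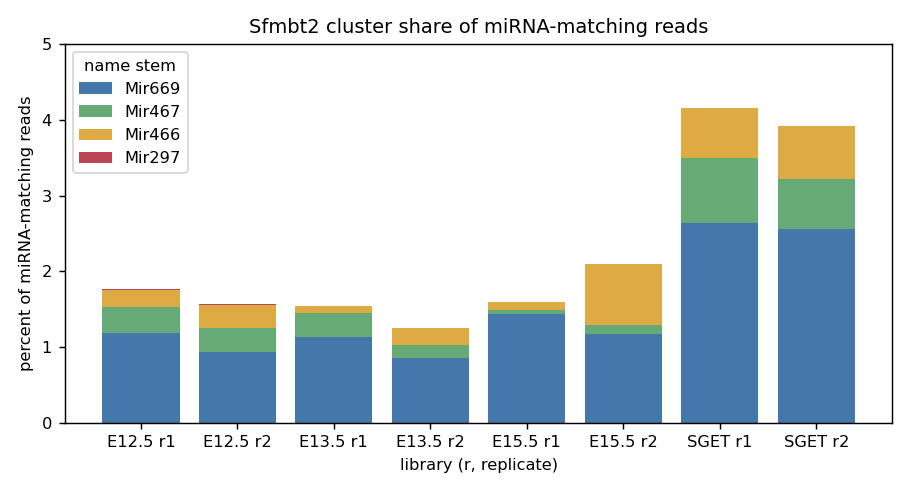
Stacked bars give the percent of miRNA-matching reads of 20 to 24 nt in each of the 8 libraries taken by the cluster, split by name stem (r, replicate). Mir669 is the largest part of every bar, and both SGET bars are near 4% while the mPGC bars lie between 1.25% and 2.10%.

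In SGET mPGCLCs the mean share of 4.04% ± 0.174 (SD, n = 2) was 2.43 ± 0.23 times that of 1.66% ± 0.141 (SD, n = 2) at E12.5 and 2.89 ± 0.44 times that of 1.40% ± 0.202 (SD, n = 2) at E13.5 (propagated SD). A two-sided exact permutation test gives p = 0.33 for each, the smallest that 2 against 2 allows. In the quasi-likelihood test of edgeR, adjusted by Benjamini-Hochberg over 268 miRNA families, the Sfmbt2 cluster was higher in SGET mPGCLCs by 1.28 on the log2 scale against E12.5 (standard error 0.37, adjusted p = 0.0125) and by 1.53 against E13.5 (standard error 0.38, adjusted p = 0.00214). In these comparisons 12.3% and 14.6% of all families were called, and 4.85% and 5.6% were called higher. The first call was lost without either E12.5 library (adjusted p = 0.19 without replicate 1, 0.26 without replicate 2) or without SGET replicate 1 (0.084), and the second without E13.5 replicate 2 (0.072). With all mapping reads as the library size neither passed (adjusted p = 0.09996 and 0.0683). Both comparisons share the SGET libraries, and SGET mPGCLCs were not tested against E15.5.

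Between mPGC stages the cluster passed the test in no comparison. Its share at E13.5 was 0.839 ± 0.141 times that at E12.5, and the mean of 1.85% ± 0.353 (SD, n = 2) at E15.5 was 1.32 ± 0.32 times that at E13.5 and 1.11 ± 0.23 times that at E12.5 (propagated SD). The Sfmbt2 cluster log2 fold changes were -0.25, 0.41 and 0.15, each with a standard error of 0.37 (edgeR adjusted p = 0.989, 0.891 and 0.963), and 1.12%, 0.373% and 4.1% of all families were called in these comparisons. The choice of denominator matters here, because miRNA-matching reads fell from 12.8% and 20.6% of all mapping reads at E12.5 to 2.22% and 1.89% at E15.5. Per mapping read the cluster was 0.226% and 0.322% at E12.5 and 0.0355% and 0.0397% at E15.5, and it fell by 2.87 on the log2 scale (edgeR adjusted p = 0.00223). Per mapping read 48 of 259 families were called lower in that comparison and 1 higher, 18.9% in all. The levels that follow are in rpm, reads per 1000000 miRNA-matching reads, and in sorted cells fewer cells of a type and less RNA per cell cannot be told apart.

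Mir669 was the most abundant stem in every library. Its level was 11895 and 9353 rpm in the libraries of E12.5, 11338 and 8577 in those of E13.5, 14322 and 11670 in those of E15.5, and 26383 and 25634 in the SGET libraries. Both SGET libraries were above all mPGC libraries. Mir467 was at 3353 and 3151 in the libraries of E12.5, 3210 and 1689 in those of E13.5, 507 and 1293 in those of E15.5, and 8582 and 6515 in the SGET libraries. Here the E15.5 libraries were the lowest of the 8 and the SGET libraries the highest. Mir466 was at 2277 and 3104 in the libraries of E12.5, 838 and 2195 in those of E13.5, 1160 and 8018 in those of E15.5, and 6630 and 6982 in the SGET libraries. For Mir466 the highest library was E15.5 replicate 2, above both SGET libraries, while E15.5 replicate 1 was the second lowest. Mir297 had 101 and 65 reads in the E12.5 libraries, 0 and 302 in those of E13.5, 0 and 2 in those of E15.5, and 0 in both SGET libraries, where a count of 0 allows up to 1.84 and 1.27 rpm.

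Of the 4 stems tested, 1 was called higher in SGET mPGCLCs than at E12.5 and 2 higher than at E13.5, with 0 lower in either comparison. Over all 271 families so tested, 12.2% and 14.8% were called, with 4.8% and 5.9% higher. The stem medians were 1.25 and 1.504 on the log2 scale, Mir297 with its fitted values included, against -0.09 and -0.07 over all families. Mir669 rose by 1.29 against E12.5 (standard error 0.42, edgeR adjusted p = 0.0301) and by 1.39 against E13.5 (standard error 0.42, adjusted p = 0.016). Mir466 rose by 2.17 against E13.5 (standard error 0.73, adjusted p = 0.0323), and its value against E12.5 was 1.34 (adjusted p = 0.245). The size of its change against E13.5 depends on the library kept, since the E13.5 libraries were at 838 and 2195 rpm. Mir467 had log2 fold changes of 1.21 and 1.62 that did not pass (adjusted p = 0.259 and 0.108). With TMM normalization the numbers called higher were 0 and 1, where 4.43% and 5.54% of all families were called higher. With all mapping reads as the library size they were 0 and 0, where 4.2% and 3.44% of all families were called higher. Leaving out any 1 library of E12.5, E13.5 or SGET mPGCLCs lost calls in both comparisons. Leaving out E15.5 replicate 1 gained calls in both, as it did over all families.

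Among mPGC stages 0 of 4 stems were called by edgeR in any of 3 comparisons, with 1.11%, 0.369% and 4.06% of all families called by edgeR for E13.5 against E12.5, E15.5 against E13.5 and E15.5 against E12.5. At an unadjusted p under 0.05 there were 0, 2 and 1 stems, beside 12, 22 and 40 of all 271 families. With all mapping reads as the library size Mir467 and Mir669 were called lower at E15.5 against both earlier stages, where 20.6% of all families were called against E13.5 and 19.1% against E12.5. DESeq2 called 0 stems, where it called 2.58%, 3.59% and 7.75% of all families, and it gave Mir297 no adjusted p for E15.5 against E13.5. The Mir467 log2 fold change from E12.5 to E15.5 was -1.85 (standard error 0.70, edgeR adjusted p = 0.102), and from E13.5 to E15.5 it was -1.44 (adjusted p = 0.533). The size of both changes depends on the library kept, since Mir467 was at 507 and 1293 rpm in the E15.5 libraries. The Mir466 value from E13.5 to E15.5 was 1.60 (adjusted p = 0.504) with both E15.5 libraries. It was -0.39 without E15.5 replicate 2 and 2.40 without E15.5 replicate 1. In E15.5 replicate 2 a single sequence, the Mir466 3p 22-mer, had 3915 of the 4024 Mir466 reads, against 123 of 350 in replicate 1.

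**Figure D2:**
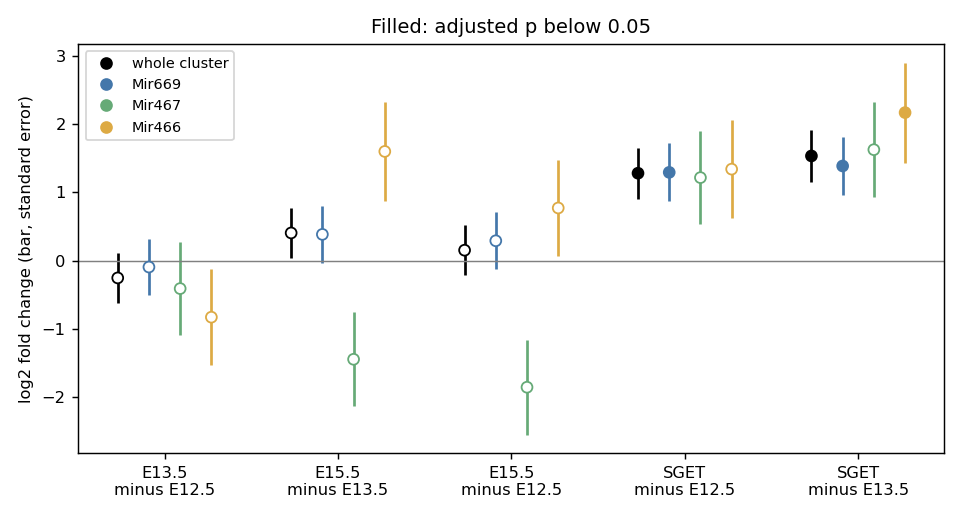
Points give the edgeR log2 fold change of the whole cluster and of its 3 main stems in 5 comparisons, with bars for the standard error, and are filled where the adjusted p is below 0.05. The filled points are all in the comparisons of SGET mPGCLCs with E12.5 or E13.5, and Mir467 is below 0 in the comparisons of E15.5.

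A single hairpin, Mir669c, gave the largest part of the cluster's reads. Sequences that fit Mir669c alone made up 53.5% of all cluster reads, with 169203 reads, and between 45.8% and 83.9% by library. Its level was 8901 and 7162 rpm in the libraries of E12.5, 9139 and 7285 in those of E13.5, 13420 and 11386 in those of E15.5, and 20568 and 21407 in the SGET libraries. Both E15.5 libraries were above all E12.5 and E13.5 libraries, and both SGET libraries were above those. Mir467e, the next hairpin with reads of its own, was at 1921 and 1341 in the libraries of E12.5, 1994 and 973 in those of E13.5, 288 and 139 in those of E15.5, and 4443 and 4312 in the SGET libraries. It was lowest in the E15.5 libraries, where Mir669c was not. Mir467c, Mir669o and Mir669l held 3.81%, 2.86% and 2.27% of cluster reads, and each was lower in both E15.5 libraries than in the other 6. Mir467c, the highest of these at E15.5, was at 16.6 and 135 rpm there, against 2161 and 1017 in SGET mPGCLCs. Without the Mir669c sequences, an alternative chosen after the data were seen, the cluster's share was 0.873% and 0.847% in the libraries of E12.5, 0.625% and 0.525% in those of E13.5, 0.257% and 0.960% in those of E15.5, and 2.10% and 1.77% in the SGET libraries. The SGET libraries were still the highest 2 of 8, and the E15.5 libraries were then on both sides of the E12.5 libraries.

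Most hairpins had no reads that could be given to them alone. Of the 119 hairpins 80 were matched by a cluster sequence and 39 by none, and 24 had a sequence that fits no other hairpin. Of the 182 sequences 122 fit 1 hairpin and 60 fit several, with up to 25 hairpins for 1 sequence. The share of cluster reads that fit 1 hairpin lay between 73.7% and 87.4% in 7 libraries and was 56.6% in E15.5 replicate 2. Its group means, between 72.0% and 83.8% here, also moved with the processing. Over the alternatives that kept all libraries, the lowest mean of each group was between 61.8% and 67.6%. The highest was between 74.2% and 83.7%. Reads mapping to more than 100 places were dropped by the authors' alignment, and the effect of this on the repeated copies was not tested.

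**Figure D3:**
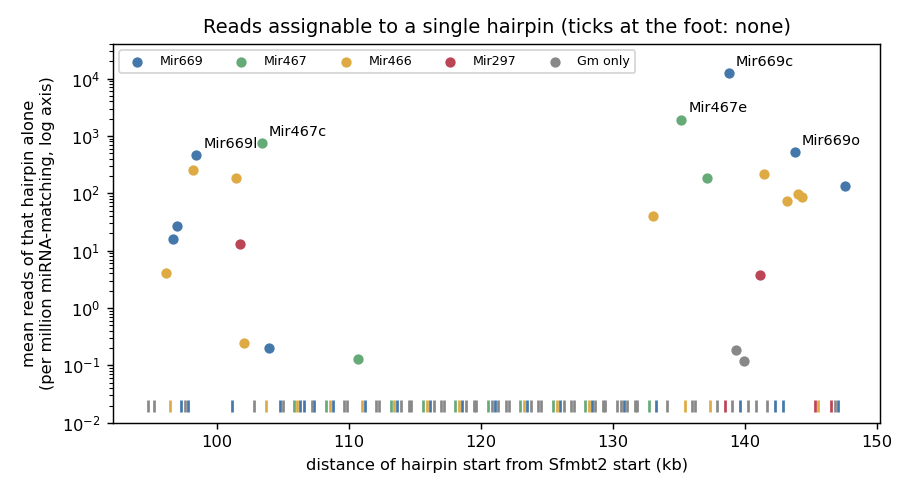
Each point is a hairpin placed by its distance from the Sfmbt2 start in kb, with the mean over libraries of the rpm that fit it alone on a log axis, and ticks at the foot mark hairpins without such reads. Mir669c stands highest, and hairpins with reads of their own lie mainly towards either end of the run.

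Among single sequences, 81 of the cluster's 182 passed the filter on low counts, and 1 was called. The Mir669c 5p 22-mer was at 530 and 716 rpm in the libraries of E12.5, 390 and 428 in those of E13.5, 1024 and 175 in those of E15.5, and 4411 and 5954 in the SGET libraries. Both SGET libraries were above all 6 mPGC libraries. It was higher in SGET mPGCLCs than at E13.5 by 3.66 on the log2 scale (standard error 1.15, edgeR adjusted p = 0.0389 over 1483 sequences), and its value against E12.5 was 3.06 (standard error 1.12, adjusted p = 0.144). Over all sequences 4.05% were called against E13.5 and 3.17% against E12.5. The call was lost when any 1 library of E12.5, E13.5 or SGET mPGCLCs was left out, with TMM normalization, with all lengths and with no filter, and 2 sequences were called higher without E15.5 replicate 2, where 3.43% of all sequences were called and 1.14% higher. In the other 4 comparisons edgeR called 0 cluster sequences, with 3 at an unadjusted p under 0.05 for SGET mPGCLCs against E12.5, 4 for E15.5 against E12.5, 4 for E15.5 against E13.5 and 0 for E13.5 against E12.5, beside 163, 97, 63 and 30 of all 1483 sequences. Over all sequences 1.62%, 0.539% and 0.27% were called in the last 3. DESeq2 called 4 higher and 3 lower in SGET mPGCLCs against E13.5, 1 higher and 3 lower against E12.5, and 1 higher at E15.5 against each earlier stage. It gave an adjusted p to 64, 65, 36 and 52 of the 81 for SGET mPGCLCs against E13.5 and E12.5 and for E15.5 against E13.5 and E12.5, and over all sequences with one it called 21.7%, 16.7%, 1.08% and 5.12%.

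The Mir669c 5p 24-mer was the most abundant sequence of the cluster, with 41.7% of its reads. It was at 7946 and 6094 rpm in the libraries of E12.5, 7621 and 6469 in those of E13.5, 11961 and 11138 in those of E15.5, and 15039 and 13950 in the SGET libraries. The libraries of SGET mPGCLCs were highest, followed by those of E15.5, and its log2 fold changes of 1.05 and 1.04 in SGET mPGCLCs against E12.5 and E13.5 did not pass (standard error 0.47, edgeR adjusted p = 0.336 and 0.315). The Mir467e 22-mer a was at 1108 and 982 in the libraries of E12.5, 1138 and 431 in those of E13.5, 6.63 and 65.8 in those of E15.5, and 2710 and 2515 in the SGET libraries. Its E15.5 levels rest on 2 and 33 reads. The Mir466 3p 22-mer was between 96.8 and 408 in the mPGC libraries other than E15.5 replicate 2, at 7801 there, and at 876 and 909 in SGET mPGCLCs. The Mir467c 22-mer was the only one of the 10 whose SGET libraries lay apart, at 994 and 180, on both sides of the E12.5 libraries.

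**Figure D4:**
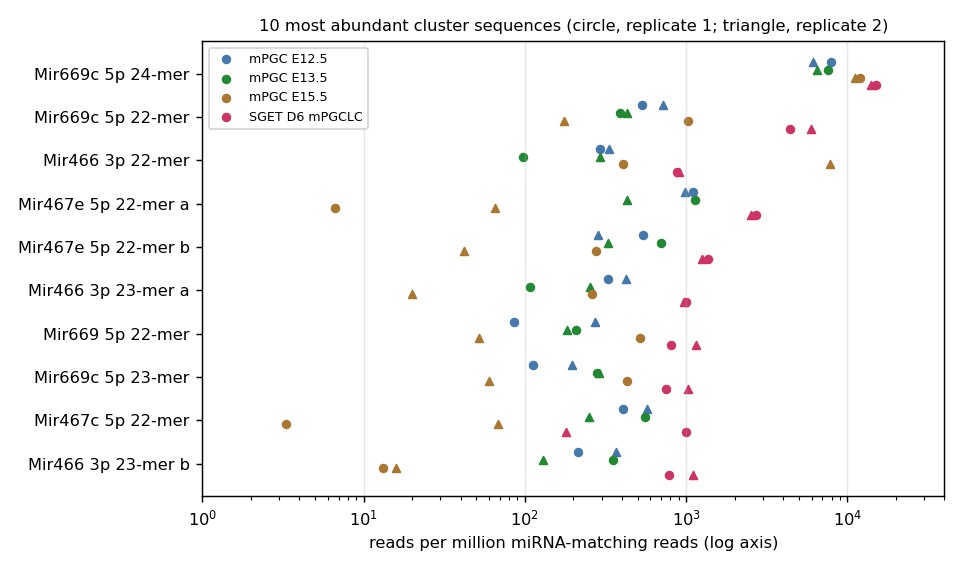
Points give rpm, reads per 1000000 miRNA-matching reads, on a log axis for the 10 most abundant cluster sequences, coloured by group, with circles for replicate 1 and triangles for replicate 2. The SGET points lie to the right of the E12.5 and E13.5 points for all but the Mir467c 22-mer, and the Mir466 3p 22-mer has 1 E15.5 library far to the right.

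The length of the Mir669c 5p miRNA also differed between mPGCs and SGET mPGCLCs. Its 24-nt form made up 92.5% and 87.0% of its reads of 20 to 24 nt in the libraries of E12.5, 91.9% and 89.9% in those of E13.5, 89.2% and 97.9% in those of E15.5, and 74.4% and 66.4% in the SGET libraries. Its 22-nt form made up 6.17% and 10.2%, 4.71% and 5.95%, 7.64% and 1.54%, and 21.8% and 28.4% in the same order. The groups of mPGC and SGET libraries did not overlap, with the ratio of 24-nt to 22-nt reads at 2.88 ± 0.754 (SD, n = 2) in SGET mPGCLCs against 11.7 ± 4.59 (SD, n = 2) at E12.5, 17.3 ± 3.13 (SD, n = 2) at E13.5 and 37.6 ± 36.7 (SD, n = 2) at E15.5. No test was run on these ratios. Over all other miRNA-matching reads the 24-nt share moved in the same direction, at 14.3 to 18.6% in the mPGC libraries and 8.40% and 8.13% in SGET mPGCLCs, and its part in the Mir669c result was not tested.

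**Figure D5:**
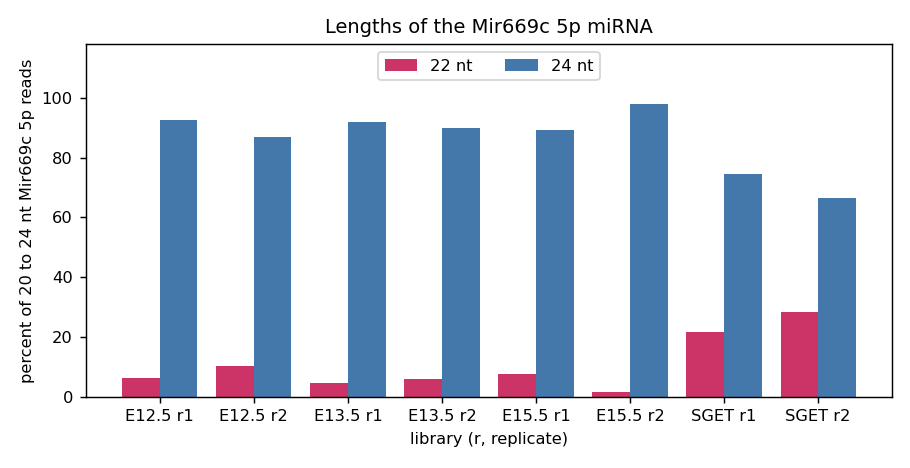
Paired bars give the 22-nt and 24-nt forms as percents of the Mir669c 5p reads of 20 to 24 nt in each library. The 24-nt bar is 87.0% or more in the 6 mPGC libraries and 74.4% or less in the 2 SGET libraries.

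The 5p arm gave 79.2% or more of cluster reads in every library but E15.5 replicate 2, where it gave 57.3%. Cluster reads began with A in 73.9 to 80.3% at E12.5, E13.5 and in SGET mPGCLCs and in 93.9% and 98.0% at E15.5. Other miRNA reads began with A in 22.1 to 46.8%. These shares weigh reads, and at E15.5 they rest largely on few sequences that begin with A. Sequences of Mir669c alone gave 83.9% and 54.3% of cluster reads in the E15.5 libraries. In E15.5 replicate 2 the Mir466 3p 22-mer was at 7801 of the cluster's 20986 rpm. Among reads with a Mir467e 5′ start, the form a start was found in 49.7 to 73.2% of reads in 7 libraries and in 2.30% of 87 reads in E15.5 replicate 1.

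Other miRNA clusters of pluripotent and imprinted loci were set beside it. The Mir290 to Mir295 cluster, the main miRNAs of mouse pluripotent cells, held 30.0% ± 0.527 of miRNA-matching reads at E12.5 and 21.5% ± 0.317 a day later, 13.6% ± 0.979 at E15.5, and 36.4% ± 0.473 in SGET mPGCLCs (SD, n = 2). In edgeR 4 of its 6 families fell from E12.5 to E15.5, where 4.06% of all families were called. In SGET mPGCLCs 0 of 6 were called against E12.5 and 1 was called higher against E13.5, where 5.9% of all families were. The Mir302 and Mir367 cluster held 0.0543% ± 0.00214 at E12.5 and 0.0179% ± 0.00107 a day later, 0.172% ± 0.112 at E15.5, and 0.526% ± 0.0518 in SGET mPGCLCs (SD, n = 2). Of its 2 families, 1 was called higher in SGET mPGCLCs against E12.5 and 1 against E13.5, with 0 lower. Over all families 4.8% and 5.9% were called higher in these. The imprinted Dlk1-Meg3 cluster held 0.594% ± 0.0436 at E12.5 and 0.779% ± 0.0906 a day later, 1.47% ± 1.05 at E15.5, and 10.8% ± 0.00829 in SGET mPGCLCs (SD, n = 2). In SGET mPGCLCs 11 of its 45 families rose against E12.5 and 0 fell, beside 4.8% of all 271 families higher and 12.2% called. Against E13.5 11 of 45 also rose and 0 fell, beside 5.9% of all families higher and 14.8% called.

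Markers of other cells in the sorts were counted in the same libraries. Of the 6 blood genes listed, 5 have a miRNA transcript in the annotation. Mir142 had 802 reads in 5 libraries, Mir150 had 251 in 6, Mir223 had 173 in 4 with up to 375 rpm, Mir144 had 71 in 1 and Mir451a, the red cell miRNA, had 1 read, and the list summed to at most 0.0448% of miRNA-matching reads. Of the 2 endothelial miRNAs Mir126b had 0 reads, and Mir126a was between 3.32 and 434 rpm. All 6 miRNAs of gonadal soma and mesenchyme had reads, though Mir145a and Mir202 had them in only 6 libraries each. Mir199a-1 and Mir199a-2, which share a mature sequence, were most abundant (30565 reads for Mir199a-1). Summed, they were at 2906 and 2054 rpm in the libraries of E12.5, 2944 and 5953 in those of E13.5, 6544 and 14741 in those of E15.5, and 5434 and 6675 in the SGET libraries. The sum was above both E12.5 libraries in both SGET libraries and highest in E15.5 replicate 2. Of the 5 families of this list tested in edgeR, 0 were called higher in SGET mPGCLCs than at E12.5 and 1, Mir202, was called lower, with 4 of 5 above 0, 3 at an unadjusted p under 0.05 and a list median of 1.98 on the log2 scale. At E15.5 against E12.5 1 of 5, Mir199, was called higher, with 5 of 5 above 0 and a median of 2.70, beside medians of -0.09 and 0.13 over all families in these comparisons. Over all 271 families 13 were called higher and 20 lower in the first, and 7 higher and 4 lower in the second. The part of these cells in the cluster's levels was not tested.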

How the data were processed

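Per the labels and the study's methods, the authors trimmed adapters and 4 random bases at each end with cutadapt 3.2 and mapped reads to GRCm38 with STAR 2.5.3a, keeping up to 100 places per read and assigning 1 at random. The deposited files hold raw counts of each distinct sequence, not normalized, between 7447873 and 26552524 per library. The random bases were not used to remove PCR copies. The genes, lists and comparisons were chosen with earlier results of these data known. Counts of 20 to 24 nt were matched exactly and in sense to GENCODE M21 miRNA transcripts with Python 3.11.15. A sequence was given the Mir stem of its hairpins, and Gm hairpins gave no stem of their own unless matched alone. Levels are reads per 1000000 miRNA-matching reads (rpm). The tests on counts used edgeR 4.0.16 under R 4.3.3 (quasi-likelihood, all 8 libraries in one fit, library size the miRNA-matching total, default low-count filter, Benjamini-Hochberg over all features, threshold 0.05), and DESeq2 1.42.0 was an alternative. In data simulated with the common dispersion estimated from these libraries the fits found few or none of the changes put in, and DESeq2 also called unchanged sequences. A change that did not pass may therefore still be present, and calls by DESeq2 alone carry less weight. The simulation used the common dispersion alone, so it does not show how large a change of the cluster itself would pass. Standard errors were derived from the F value of each test. Named are every stem, the 10 cluster sequences with the highest mean level, the most abundant sequence of each larger stem, called sequences and the 5 hairpins with most reads of their own. Replicate numbers do not pair samples. Per the study's methods, samples were sequenced on both HiSeq and NovaSeq instruments and the runs of a library were merged.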

Additional observations from a re-analysis of the deposited data

Results flagged for a closer look

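Cluster sequences outside the 20 to 24 nt range were not part of the main comparisons, and entered only the alternatives with other lengths. Reads of 15 to 19 nt were most frequent in SGET mPGCLC replicate 2, with 674 reads, against 420 in SGET replicate 1 and between 1 and 158 in the mPGC libraries. The 2 SGET libraries differed in length here. Replicate 2 had 654 reads of 15 nt and replicate 1 had 0, while replicate 1 had 417 of 19 nt and replicate 2 had 18. Reads of 25 to 43 nt were most frequent in E15.5 replicate 2, with 1166 reads, of which 1165 were the 25-nt form of the Mir669c 5p miRNA, against 1 read in E15.5 replicate 1. E13.5 replicate 2 had 903 such reads, of which 838 were that 25-nt form, and the other libraries had between 115 and 298. Both were above the limit that a count of 0 allows.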

How the results depend on the processing

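With all mapping reads as the denominator, the cluster's ratio of E15.5 to E13.5 became 0.153 and of E15.5 to E12.5 0.137, and the log2 fold changes became -2.71 and -2.87 (adjusted p = 0.00296 and 0.00223), with 2 stems called lower in each, where 20.6% and 19.1% of all families were called, and 4 and 3 of 78 sequences lower, where 5.58% and 5.08% of all sequences were called. The Mir669 values were then 0.010 for E13.5 against E12.5, -2.69 for E15.5 against E13.5 and -2.68 for E15.5 against E12.5, and the Mir466 values were -1.73 and -2.39 for the last 2. The SGET changes of 1.58 and 1.74 against E12.5 and E13.5 missed the threshold (adjusted p = 0.09996 and 0.0683), with 0 stems called. Without Mir669c the ratio of E15.5 to E12.5 was 0.708. The cause of these changes was not tested.

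Stems called higher in SGET mPGCLCs against E12.5 numbered 0 with TMM normalization and 3 with only the 2 groups compared in the fit, where 4.43% and 12.7% of all families were called higher. Against E13.5 they numbered 1 with TMM normalization, 1 with all lengths and 1 with only the 2 groups compared, where TMM normalization called 5.54% of all families higher, all lengths 4.47% and the 2 groups 6.33%. For single sequences, TMM normalization called 1 higher at E15.5 against E13.5, 1 against E12.5 and 0 in SGET mPGCLCs against E13.5, where all lengths and no filter also gave 0, and it called 0.809%, 1.28% and 3.78% of all sequences in these. DESeq2 called 1 higher at E15.5 against E13.5 and 1 against E12.5, 1 higher and 3 lower in SGET mPGCLCs against E12.5, and 4 higher and 3 lower against E13.5, with 1.08%, 5.12%, 16.7% and 21.7% of all sequences called. With only the 2 groups compared, 1 sequence was higher and 1 lower in SGET mPGCLCs against E12.5, where 2.73% of all sequences were called.

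Leaving out 1 library at a time, where a lone library is assumed to vary like the other groups, the ratio of E15.5 to E12.5 ranged from 0.961 to 1.26 and its log2 fold change from -0.057 to 0.34. The SGET log2 fold change ranged from 1.19 to 1.37 against E12.5 and from 1.39 to 1.69 against E13.5. Stems called higher ranged from 0 to 2 and from 0 to 3 in these, and from 0 to 1 for E15.5 against E13.5, where the share of all families called higher ranged from 1.55% to 9.34%, from 2.41% to 8.06% and from 0.301% to 3.61%. Stems called lower ranged from 0 to 1 for E15.5 against E12.5, with the 1 found where 5.37% of all families were called. Sequences called higher ranged from 0 to 2 in both SGET comparisons and from 0 to 1 for E15.5 against either stage, as did those called lower in the latter. The share of all sequences called ranged from 0.965% to 3.53% and from 1.18% to 3.87% in SGET mPGCLCs against E12.5 and E13.5, and from 0.0431% to 1.46% and from 0.0877% to 1.98% for E15.5 against E13.5 and E12.5. The low-count filter keeps more features where a group has 1 library. Mir669 ranged from -0.31 to 0.094 for E13.5 against E12.5. Mir466 ranged from -0.39 to 2.45 for E15.5 against E13.5 and from -1.21 to 1.58 for E15.5 against E12.5. Mir297, whose fitted values rest on libraries at 0 and are no bound, ranged from -9.57 to 0.63, from -9.17 to 4.68 and, in SGET mPGCLCs against E13.5, from -10.04 to 0.

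Adding a replicate block to the fit changed no call of the cluster or count of called stems or sequences, with SGET log2 fold changes of 1.28 and 1.53. Deviations of same-numbered libraries correlated between -0.0252 and 0.0906. The planned search of the whole genome for other places of each sequence was not run, and leaving out sequences that match another transcript was added after the data were seen. Miscounting of copies that map to many places was not tested, and depth limits the E15.5 values most.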

Other observations

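Antisense reads of 15 to 43 nt to the cluster hairpins numbered 0 in all 8 libraries, and sense reads to Sfmbt2 exons numbered 34 in E12.5 replicate 2, 2 in E13.5 replicate 1 and 0 in the other libraries. Among reads that begin with the first 20 bases of the Mir669c 5p miRNA, between 4.73% and 15.497% left the hairpin sequence after base 20. Sequences of the same name stems that match only hairpins outside Sfmbt2 had 218 reads in E12.5 replicate 2 and at most 4 in each other library.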
